A study of Mus musculus with 8 samples.

Results

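Fgf12, Fgf13 and Fgf14 encode FGF homologous factors (FHFs), cytosolic proteins that resemble fibroblast growth factors but are not secreted as such and do not act as classical growth factors. Their rows were found by gene symbol in a table of 15693 genes measured in mouse brain cortex, and all 3 genes had a row. FHFs bind the intracellular tail of the pore-forming alpha subunits of voltage-gated sodium channels, and they shape how fast the channels inactivate, how long-term inactivation builds up and how channels gather at the axon initial segment, where action potentials start. Fgf14 is best known from an inherited cerebellar ataxia in humans, Fgf12 from an early-onset epilepsy, and Fgf13 from work on neuronal excitability and on microtubules in developing neurons. A further FHF gene, Fgf11, is given beside them for comparison.

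The study sequenced polyadenylated RNA from flash-frozen whole cortex of the TDP-43Q331K line (4 libraries) and of wild type (WT) mice (4 libraries). TDP-43 is the RNA-binding protein encoded by Tardbp, and Q331K is an amino acid change linked to amyotrophic lateral sclerosis (ALS). All samples came from 4-month-old animals and from batch 1, with no treatment named. The genotype label of the WT samples gives C57BL/6J, while the text on the design gives c57bl6/n, so the substrain of the WT mice is uncertain, and the background of the TDP-43Q331K mice is not given. The labels give neither the construct or promoter of the line nor sex or litter, and no label says whether each library came from a separate animal. The p-values here therefore measure the spread between these libraries. By its title, the study is about neurons of the motor cortex that are less excitable and carry smaller persistent inward currents, and FHFs regulate channels that carry such currents.

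Total counts ran from 45253021 to 58115164 per library. The unit of a level is CPM, a count scaled to a common library size with TMM factors, a method that centres libraries on the bulk of their genes. Differences were tested with edgeR's quasi-likelihood test, with p adjusted by Benjamini-Hochberg over all 15693 genes and called at an adjusted p under 0.05. That test called 148 genes, 54 higher and 94 lower in TDP-43Q331K cortex, which is 0.943% of the genes tested, or 0.599% for the lower ones alone. Tardbp itself averaged 155 ± 11.7 CPM in TDP-43Q331K cortex and 185 ± 12.8 CPM in WT cortex (SD, n = 4 each), with an edgeR adjusted p of 0.106 and a DESeq2 adjusted p of 0.0117. Cortical excitatory and pan-neuronal markers were abundant in all libraries. Their summed level was 1530 to 1700 CPM for 6 excitatory markers in TDP-43Q331K libraries, against 1620 to 1870 CPM in WT libraries. Each group held 2 libraries with high Xist, the RNA of the inactive X chromosome in female cells. These were TDP-43Q331K replicates 1 and 2 and WT replicates 2 and 3, at 876 to 1015 CPM, and the other 4 libraries had at most 1.37 CPM. In bulk tissue, fewer cells of a type and less RNA per cell cannot be told apart.

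The FHF genes are related in sequence but far enough apart to be counted separately. The stretches printed here are the 60 coding bases with the most positions alike in all 3 genes. They need not be the most alike stretch of any pair, and bases outside the coding sequences were not part of that search. They come from the GENCODE M21 transcripts Fgf12-201 (coding bases 420 to 479), Fgf13-201 (408 to 467) and Fgf14-202 (429 to 488), on the sense strand from 5′ to 3′. Capitals mark the bases that are not the same in all 3 genes, and 43 of the 60 bases are the same.
Fgf12: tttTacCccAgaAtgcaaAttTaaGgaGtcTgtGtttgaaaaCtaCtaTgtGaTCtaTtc
Fgf13: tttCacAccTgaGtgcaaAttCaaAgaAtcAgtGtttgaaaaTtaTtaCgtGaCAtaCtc
Fgf14: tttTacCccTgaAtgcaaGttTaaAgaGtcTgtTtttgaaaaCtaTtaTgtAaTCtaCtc
Over the whole coding sequence, identity was 65.7% between Fgf12 and Fgf13, 61.5% between Fgf12 and Fgf14, and 60.7% between Fgf13 and Fgf14. The longest run shared without a mismatch was 14, 15 and 14 bases for these pairs, and 28 bases between Fgf12 and Fgf11. No transcript of another gene matched a transcript of these genes at 90% identity or more over at least 50% of its length. Of the genes annotated within their spans, only the antisense gene Gm28932 shares exon bases with any of them, 220 bases of Fgf14 on the opposite strand. It was not analysed here, and the strand setting used for counting is unknown here.

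All 3 genes are long, with large introns, a feature of many neuronal genes. In that annotation Fgf12 lies on chromosome 16 and spans 593 kb, Fgf13 lies on chromosome X and spans 506 kb, and Fgf14 lies on chromosome 14 and spans 699 kb. Of 13832 measured protein-coding genes, 98.9%, 98.5% and 99.2% are shorter. Coordinates are not printed because the annotation describes GRCm38, while the submitters' processing notes name GRCm39. The loci also hold several transcripts, 6 for Fgf12, 9 for Fgf13 and 2 for Fgf14, among them variants with different first coding bases. FHF variants with different N-termini are known to differ in where they go in the cell and in how they affect inactivation. The starts of the complete coding sequences of Fgf13 are printed to show how early the variants diverge, with the start codon in capitals.
Fgf13-201: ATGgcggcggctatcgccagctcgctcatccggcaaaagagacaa
Fgf13-202: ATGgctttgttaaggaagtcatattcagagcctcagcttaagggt
Fgf13-203: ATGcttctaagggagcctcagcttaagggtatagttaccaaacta
The counts are per gene, so all values for Fgf13, Fgf12 and Fgf14 are sums over such variants, and a shift between variants could not be seen.

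Fgf12 was the most counted of the 3 genes and did not differ by genotype beyond the spread between libraries. It stood at 214.9, 209.1, 216.6 and 171.0 CPM in TDP-43Q331K replicates 1 to 4, and at 201.9, 182.5, 219.3 and 214.7 CPM in WT replicates 1 to 4. The groups overlapped, with TDP-43Q331K replicate 4 the lowest of all libraries and WT replicate 2 the next lowest. The mean was 203 ± 21.5 CPM in TDP-43Q331K cortex and 205 ± 16.5 CPM in WT cortex (SD, n = 4 each). The log2 fold change was -0.012 (SE 0.083), with a 95% interval of -0.196 to 0.171 and an edgeR adjusted p of 0.962. That interval corresponds to a relative difference of -12.7% to 12.6%, so differences within that range are compatible with these libraries.

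Fgf13 was the FHF gene with the lowest p, and it was lower in every TDP-43Q331K library than in any WT library, but it missed the threshold over all genes. It stood at 108.1, 110.8, 121.0 and 122.6 CPM in TDP-43Q331K replicates 1 to 4, and at 138.6, 134.2, 125.3 and 126.4 CPM in WT replicates 1 to 4. The groups did not overlap, yet the highest TDP-43Q331K library and the lowest WT library were close to each other. The mean was 116 ± 7.24 CPM in TDP-43Q331K cortex and 131 ± 6.37 CPM in WT cortex (SD, n = 4 each). The log2 fold change was -0.182 (SE 0.055), a difference of -11.8% with a 95% interval of -19.0% to -4.05%. The edgeR quasi-likelihood p was 0.00756 before adjustment and 0.149 after it, which ranked Fgf13 at 794 among 15693 genes. The exact two-sided permutation p of its log2 CPM was 0.0286, the lowest value possible for groups of 4.

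Fgf14, the least counted of the 3 genes, had overlapping groups. It stood at 47.54, 43.10, 42.78 and 43.95 CPM in TDP-43Q331K replicates 1 to 4, and at 47.56, 43.03, 40.31 and 50.45 CPM in WT replicates 1 to 4. WT replicates 4 and 3 were the highest and the lowest of all libraries, so the TDP-43Q331K libraries lay inside the WT range. The mean was 44.3 ± 2.19 CPM in TDP-43Q331K cortex and 45.3 ± 4.53 CPM in WT cortex (SD, n = 4 each). The log2 fold change was -0.032 (SE 0.072), with a 95% interval of -0.191 to 0.127 and an edgeR adjusted p of 0.876.

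**Figure D1:**
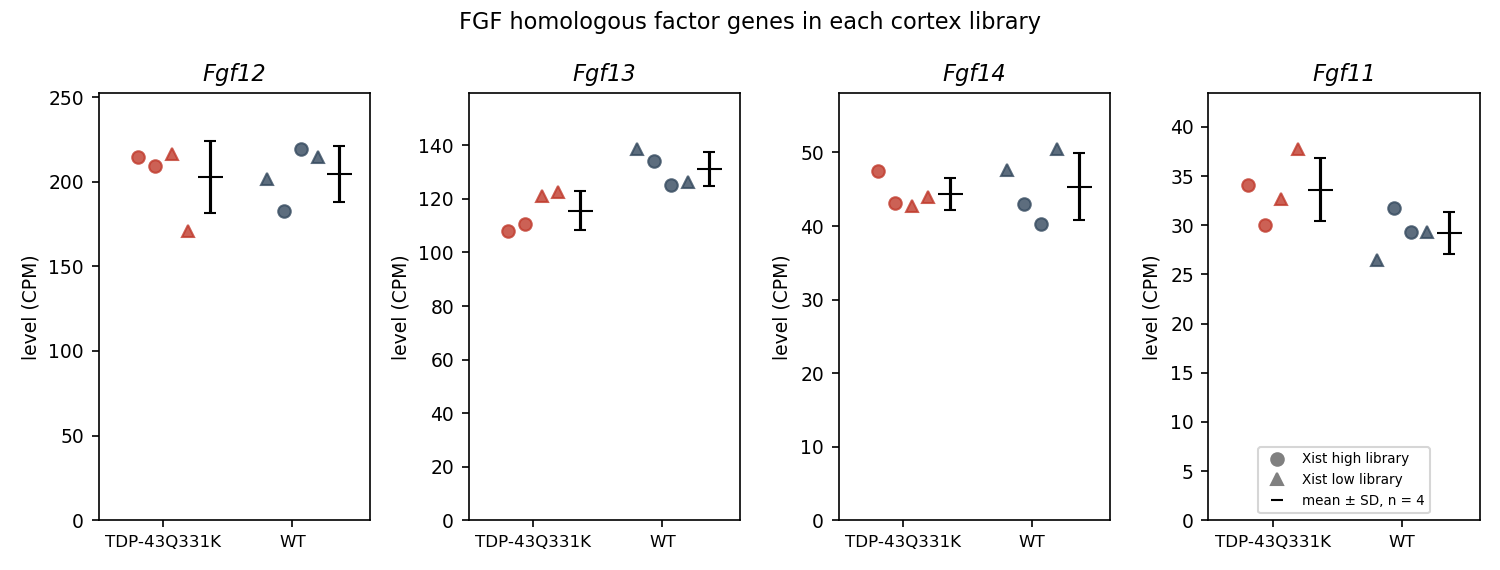
Level in CPM (y axis, from 0) of Fgf12, Fgf13, Fgf14 and Fgf11 in each library, TDP-43Q331K replicates 1 to 4 left of WT replicates 1 to 4, with the mean and SD beside each group and the symbol showing high or low Xist. Fgf13 sits between 108.1 and 122.6 CPM in TDP-43Q331K libraries and between 125.3 and 138.6 CPM in WT libraries, while the other 3 genes overlap.

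By edgeR, 0 of the 3 genes were called, where 0.943% of all genes were, and 0 were called lower, where 0.599% were. At an unadjusted p under 0.05 the count was 1 of 3, Fgf13, where 15.7% of all genes passed, and the same gene was the 1 of 3 whose groups did not overlap, where 9.68% of all genes did not overlap and 5.19% did so with TDP-43Q331K lower. DESeq2 called Fgf13 (-0.19, adjusted p = 0.0443), and it called 4.47% of all genes, 701 against the 148 of edgeR. Fgf13 thus had a position shared with many genes of the table, and its call depended on the tool.

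Fgf11, the remaining FHF gene, is compact, and its difference had the opposite sign. It stood at 34.05, 30.07, 32.62 and 37.74 CPM in TDP-43Q331K replicates 1 to 4, and at 26.44, 31.72, 29.35 and 29.31 CPM in WT replicates 1 to 4. The groups overlapped through WT replicate 2. The mean was 33.6 ± 3.2 CPM in TDP-43Q331K cortex and 29.2 ± 2.16 CPM in WT cortex (SD, n = 4 each), a log2 fold change of 0.20 (SE 0.078) with an edgeR adjusted p of 0.246.

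Fold changes compare a gene with itself, while the order of the genes needs levels per length. Per kilobase of annotated exons, Fgf12 was at 32.7 ± 3.44 CPM per kb in TDP-43Q331K cortex and 33.0 ± 2.67 CPM per kb in WT cortex, and Fgf13 was at 28.8 ± 1.79 CPM per kb in TDP-43Q331K cortex and 32.6 ± 1.6 CPM per kb in WT cortex (SD, n = 4 each). Fgf14 was at 10.6 ± 0.548 CPM per kb in TDP-43Q331K cortex and 10.9 ± 1.1 CPM per kb in WT cortex. Fgf11 was at 11.0 ± 1.05 CPM per kb in TDP-43Q331K cortex and 9.59 ± 0.7 CPM per kb in WT cortex. Fgf12 and Fgf13 formed the upper pair and Fgf14 and Fgf11 the lower pair, and the libraries' values of the genes within a pair overlapped in each group. The difference within a pair was not tested. Per kilobase of the longest transcript instead of all exons, Fgf13 stayed below Fgf12 in TDP-43Q331K cortex, at 46.3 ± 2.91 against 49.0 ± 5.19 CPM per kb, and came above it in WT cortex, at 52.5 ± 2.57 against 49.5 ± 3.99 CPM per kb. On that measure Fgf14 came above Fgf11 in TDP-43Q331K cortex, at 12.3 ± 0.616 against 11.1 ± 1.05 CPM per kb. In WT cortex it stayed above Fgf11, at 12.6 ± 1.26 against 9.6 ± 0.697 CPM per kb, and there the libraries' values of these genes did not overlap.

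The shares of Fgf12, Fgf13 and Fgf14 in their summed level overlapped between genotypes. Fgf11 is left out of this sum, and no ratio with it was tested. Of the summed level per kb of exons over the 3 genes, Fgf12 made up 45.3% ± 3.4 in TDP-43Q331K cortex and 43.1% ± 2.79 in WT cortex (SD, n = 4 each). Fgf13 made up 40.0% ± 3.25 in TDP-43Q331K cortex and 42.7% ± 2.57 in WT cortex, and Fgf14 14.7% ± 0.937 in TDP-43Q331K cortex and 14.2% ± 1.18 in WT cortex. The log2 ratio of counts between genes, which needs no scaling of libraries, tested whether a gene differed from its relatives. The log2 ratio of Fgf13 to Fgf12 was -0.81 ± 0.23 in TDP-43Q331K cortex and -0.64 ± 0.18 in WT cortex (exact two-sided permutation p = 0.229, adjusted over 3 ratios p = 0.343). The ratio of Fgf14 to Fgf13 was -1.38 ± 0.15 in TDP-43Q331K cortex and -1.54 ± 0.15 in WT cortex (exact permutation p = 0.2, adjusted p = 0.343). The ratio of Fgf14 to Fgf12 was -2.19 ± 0.17 in TDP-43Q331K cortex and -2.18 ± 0.18 in WT cortex (exact permutation p = 1.0). The lower level of Fgf13 was therefore not shown to differ from the differences of Fgf12 and Fgf14.

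Over the 8 libraries no correlation between the 3 genes passed a p of 0.05, and so few libraries cannot exclude a moderate correlation. Pearson's r of log2 CPM was -0.33 between Fgf12 and Fgf13 (exact permutation p = 0.438), 0.11 between Fgf12 and Fgf14 (exact p = 0.807) and 0.05 between Fgf13 and Fgf14 (exact p = 0.914), each 0.914 after adjustment over the 3 pairs. Spearman's rho was -0.36 for the first pair (exact p = 0.389, adjusted 0.584), -0.38 for the second (exact p = 0.360, adjusted 0.584) and 0.19 for the third (exact p = 0.665, adjusted 0.665). Without the 2 libraries farthest from the median of the first gene, r was -0.38, -0.38 and 0.12.

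Each gene had a different set of nearest patterns among 10701 genes of at least 3 in mean log2 CPM, given as a description over the same 8 libraries. The patterns most like that of Fgf13 were those of Mttp, a lipid transfer protein of lipoprotein assembly (r = 0.988, rho = 1.0), Gng2, a G protein gamma subunit (r = 0.987, rho = 0.905), and Thra, a thyroid hormone receptor (r = 0.982, rho = 1.0). Their log2 fold changes were -0.33, -0.16 and -0.18, with edgeR adjusted p of 0.114, 0.195 and 0.169. The patterns most like that of Fgf12 were those of Bzw1 (r = 0.939, rho = 0.881), Sap30bp (r = 0.938, rho = 0.643) and Hr (r = 0.936, rho = 0.714). For Fgf14 they were Amz1 (r = 0.969, rho = 0.905), Ppp1r7, a regulatory subunit of protein phosphatase 1 (r = 0.953, rho = 0.976), and Rgs7bp, a membrane anchor of RGS7 proteins (r = 0.950, rho = 0.905). These values of r are the highest of many genes over few libraries and are high by selection.

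Fgf13 is X-linked, so its level was also set beside the Xist classes. With genotype in the fit, Xist-high minus Xist-low libraries differed by -0.092 in log2 level (SE 0.0502, edgeR adjusted p = 0.755). The genotype difference of Fgf13 was -0.25 within the Xist-high libraries and -0.13 within the Xist-low libraries, with 2 libraries per genotype in each class. The difference between these differences was -0.12, with a 95% interval of -0.342 to 0.0935 and an edgeR adjusted p of 0.854.

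Fgf14 and Fgf12 changed sign between the classes. In Xist-high libraries Fgf14 was at 47.54 and 43.10 CPM in TDP-43Q331K cortex, against 43.03 and 40.31 CPM in WT cortex. In Xist-low libraries it was at 42.78 and 43.95 CPM in TDP-43Q331K cortex, against 47.56 and 50.45 CPM in WT cortex. TDP-43Q331K libraries were therefore above both WT libraries of the first class and below both of the second. The genotype differences were 0.12 and -0.18 in log2, and their difference was 0.30 (SE 0.104), with an edgeR p of 0.0208 that did not hold after adjustment over all genes (0.705). For Fgf12 the genotype differences were 0.08 in Xist-high and -0.11 in Xist-low libraries, and their difference of 0.18 had an adjusted p of 0.887.

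Olfactory bulb markers, but not thalamic ones, differed between the libraries with the most Fgf13 and the others. The list holds 8 markers of thalamus and olfactory bulb. Of these, 8 of 8 had a positive log2 fold change, with a median of 0.72 where that of all genes was 0.004. By edgeR 0 of the 8 were called, where 0.943% of all genes were. Their summed level was 245 to 322 CPM in TDP-43Q331K libraries, against 141 to 275 CPM in WT libraries. No marker was at 0 in a group, but the olfactory bulb markers fell into 2 ranges among WT libraries. Eomes, chosen here after its values were seen, was at 8.38, 18.4, 17.2 and 4.07 CPM in TDP-43Q331K replicates 1 to 4, and at 0.182, 0.0862, 13.3 and 9.51 CPM in WT replicates 1 to 4. WT replicates 1 and 2, with the least of the olfactory bulb markers, were the libraries with the most Fgf13. The thalamic markers were not low there, with Tcf7l2 at 5.77 and 5.26 CPM and Prkcd at 12.5 and 11.1 CPM. Among the other 6 libraries, TDP-43Q331K replicate 1 had the lowest mean over all 8 markers (3.94 in log2 CPM) and the lowest Fgf13 level (108.1 CPM). The olfactory bulb markers alone were lowest among these 6 in TDP-43Q331K replicate 4, with Eomes at 4.07 CPM. Doc2g and Cdhr1, also named after their values were seen, were at 3.96 and 27.1 CPM in that library. Its Fgf13 level was the highest of the TDP-43Q331K group (122.6 CPM). The part of olfactory bulb tissue in these levels was not tested. The named thalamic markers were high in TDP-43Q331K replicate 4, the library with the least Fgf12, where Prkcd was at 67.7 CPM and Tcf7l2 at 19.1 CPM, against at most 16.4 and 5.77 CPM in the other libraries. Without that library the log2 fold changes were 0.14 for Prkcd and 0.008 for Tcf7l2, against 1.27 and 0.76 with all libraries. Rora, also in the list, had a log2 fold change of 0.22 and an edgeR adjusted p of 0.241.

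With the mean of these markers as a covariate, the log2 fold change of Fgf13 was -0.12 (edgeR adjusted p = 0.589). Without WT replicates 1 and 2, a choice made after seeing the data, it was also -0.12, with an edgeR adjusted p of 0.653. Those libraries had the most Fgf13, so leaving them out had to make the difference smaller, whatever their tissue content. Both values were negative and smaller in size than the -0.18 of the fit over all libraries with no covariate, and the p before adjustment, 0.102 and 0.103 in edgeR's quasi-likelihood test, no longer passed 0.05. With the mean of 8 pan-neuronal markers as the covariate it was -0.27, with an edgeR adjusted p of 0.168. The thalamic and olfactory covariate sets the same WT libraries apart. The part of adjoining tissue in the difference of Fgf13 was therefore not tested by these fits.

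**Figure D2:**
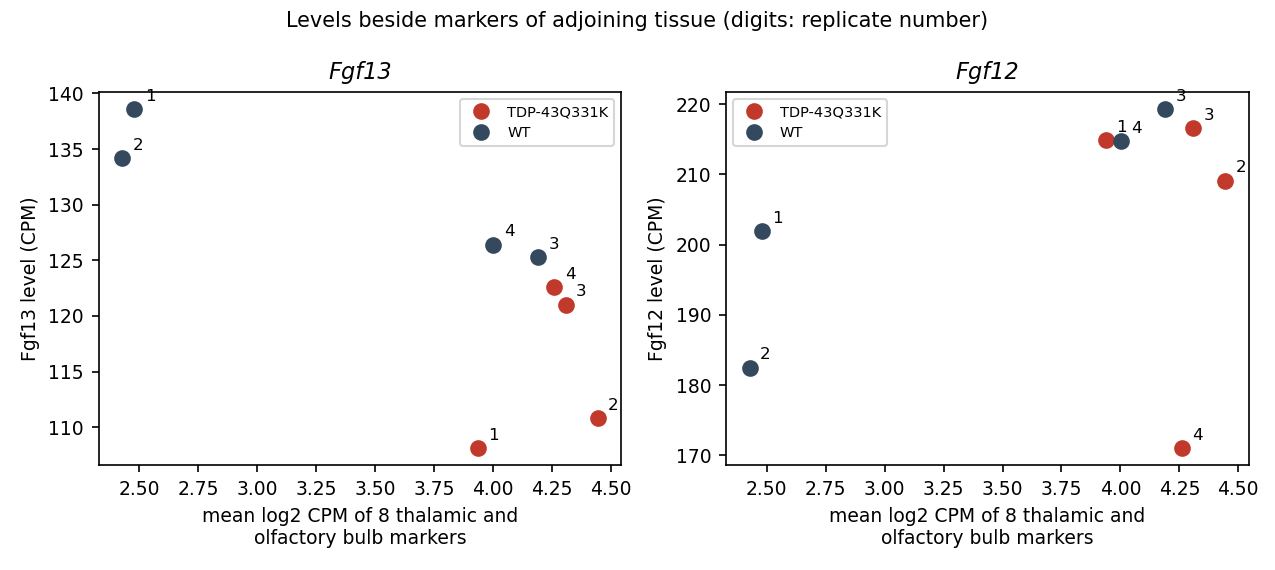
Level in CPM (y axis, not from 0) of Fgf13 and Fgf12 in each library against the mean log2 CPM of 8 thalamic and olfactory bulb markers (x axis), with replicate numbers beside the points. WT replicates 1 and 2 lie apart, at a marker mean of 2.48 and 2.43 and at 138.6 and 134.2 CPM of Fgf13, while the other 6 libraries have marker means of 3.94 to 4.44.

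The neuron content of the samples was read from marker lists. Of 8 pan-neuronal markers, 7 had a negative log2 fold change (median -0.062) and 0 were called, and their summed level was 7900 to 8770 CPM in TDP-43Q331K libraries, against 8300 to 8910 CPM in WT libraries. The lowest p values among them were those of Stmn2, a microtubule regulator that depends on TDP-43 in humans (-0.20, edgeR adjusted p = 0.106, DESeq2 adjusted p = 0.00656), Rbfox3 (-0.17, edgeR adjusted p = 0.199) and the synaptic vesicle gene Syp (-0.12, edgeR adjusted p = 0.342). All 6 excitatory neuron markers were negative (median -0.132) and 0 were called, with Fezf2 at -0.34, Neurod6 at -0.25 and Tbr1 at -0.14. Beside these values, the log2 fold change of Fgf13 was -0.18, and it was -0.27 with the pan-neuronal mean as a covariate. Inhibitory neuron markers were positive in 4 of 6 (median 0.12), at a summed 1020 to 1240 CPM in TDP-43Q331K libraries, against 833 to 1160 CPM in WT libraries. Astrocyte markers were positive in 3 of 6, oligodendrocyte markers in 6 of 6, endothelial markers in 4 of 6, striatal markers in 5 of 6 and microglia markers in 0 of 6, with medians of 0.021, 0.103, 0.02, 0.097 and -0.07 and with 0 called in each. Over all genes edgeR called 0.943%, and counts of 0 in marker lists of this size lie near that share. The part of cell makeup in the values of the FHF genes was not tested.

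The channels that FHFs bind showed no called difference. Of 10 sodium channel alpha subunit genes 7 had a row, 3 with a positive and 4 with a negative log2 fold change (median -0.014). By edgeR 0 of the 7 were called, where 0.943% of all genes were. At an unadjusted edgeR p under 0.05, 0 of the 7 passed, where 15.7% of all genes did. With 7 genes, counts of 0 lie near these shares. The lowest p was that of Scn1a, the main alpha subunit of many inhibitory neurons, at 224 ± 16.8 CPM in TDP-43Q331K cortex and 207 ± 19.0 CPM in WT cortex (0.12, edgeR adjusted p = 0.482). Scn2a, an alpha subunit of excitatory neurons, was at 437 ± 29.1 CPM in TDP-43Q331K cortex and 464 ± 30.9 CPM in WT cortex (-0.09, edgeR adjusted p = 0.547). Scn8a, the alpha subunit most tied to persistent sodium current at the axon initial segment and named here after its values were seen, was at 427 ± 44.7 CPM in TDP-43Q331K cortex and 432 ± 12.8 CPM in WT cortex (-0.02, edgeR adjusted p = 0.934; SD, n = 4 each).

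Of the 4 beta subunits, which are membrane partners of the channels, 3 were negative (median -0.051). By edgeR 0 of the 4 were called, where 0.943% of all genes were. Scn3b was at 125, 144, 146 and 156 CPM in TDP-43Q331K replicates 1 to 4, and at 173, 173, 153 and 157 CPM in WT replicates 1 to 4. The groups overlapped, with TDP-43Q331K replicate 4 above WT replicate 3. Its log2 fold change of -0.20 (SE 0.07) had an edgeR p of 0.0178 and an adjusted p of 0.209. Scn2b was at 353 ± 26.6 CPM in TDP-43Q331K cortex and 338 ± 8.85 CPM in WT cortex (0.07; SD, n = 4 each).

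Among 13 genes of the axon initial segment scaffold, a list chosen with earlier results of these data known, 1 was called, where 0.943% of all genes were. Sptan1, which encodes the alpha II chain of spectrin in the submembrane skeleton of axons and of many other cells, rose in TDP-43Q331K cortex. It was at 1780, 1680, 1550 and 1550 CPM in TDP-43Q331K replicates 1 to 4, and at 1300, 1310, 1200 and 1140 CPM in WT replicates 1 to 4. All TDP-43Q331K libraries were above all WT libraries. Its log2 fold change was 0.41 (SE 0.061) with an edgeR adjusted p of 0.0143, and it missed the threshold in 1 of 22 other settings, the pan-neuronal covariate (0.0504). Of the 13 genes, 5 were positive and 8 negative, with a median of -0.019. Groups did not overlap for 4 of the 13 genes, where 9.68% of all genes did not overlap. Beside Sptan1 these were Ank3, the ankyrin G scaffold that anchors the channels (0.12), Trim46, which bundles axonal microtubules (-0.16), and Lgi1, a secreted protein of the axon and synapse (-0.20), all 3 named after their values were seen and none called, with edgeR adjusted p of 0.251, 0.121 and 0.104.

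Among 13 genes of FHF-binding scaffolds, calmodulin and kinases, 12 had a row, 2 were positive and 10 negative (median -0.05). By edgeR 0 of the 12 were called, where 0.943% of all genes were. Groups did not overlap for 3 of the 12, all with TDP-43Q331K lower, where 5.19% of all genes did so. Calmodulin binds the same channel tail next to FHFs. For its gene Calm3, TDP-43Q331K replicates 1 to 4 had 1410, 1470, 1340 and 1340 CPM, against 1580, 1510, 1590 and 1500 CPM in WT replicates 1 to 4. All TDP-43Q331K libraries were below all WT libraries. Its log2 fold change was -0.15 with an edgeR adjusted p of 0.139, and DESeq2 called it at 0.023. Calm2 had overlapping groups and a log2 fold change of -0.13 (edgeR adjusted p = 0.241). Mapk8ip1, a kinase scaffold of the same family as the IB2 protein that binds FHFs, also had groups that did not overlap and is named after its values were seen (-0.08, edgeR adjusted p = 0.495). The calmodulin genes encode the same protein and share coding sequence, so reads could be split between them.

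**Figure D3:**
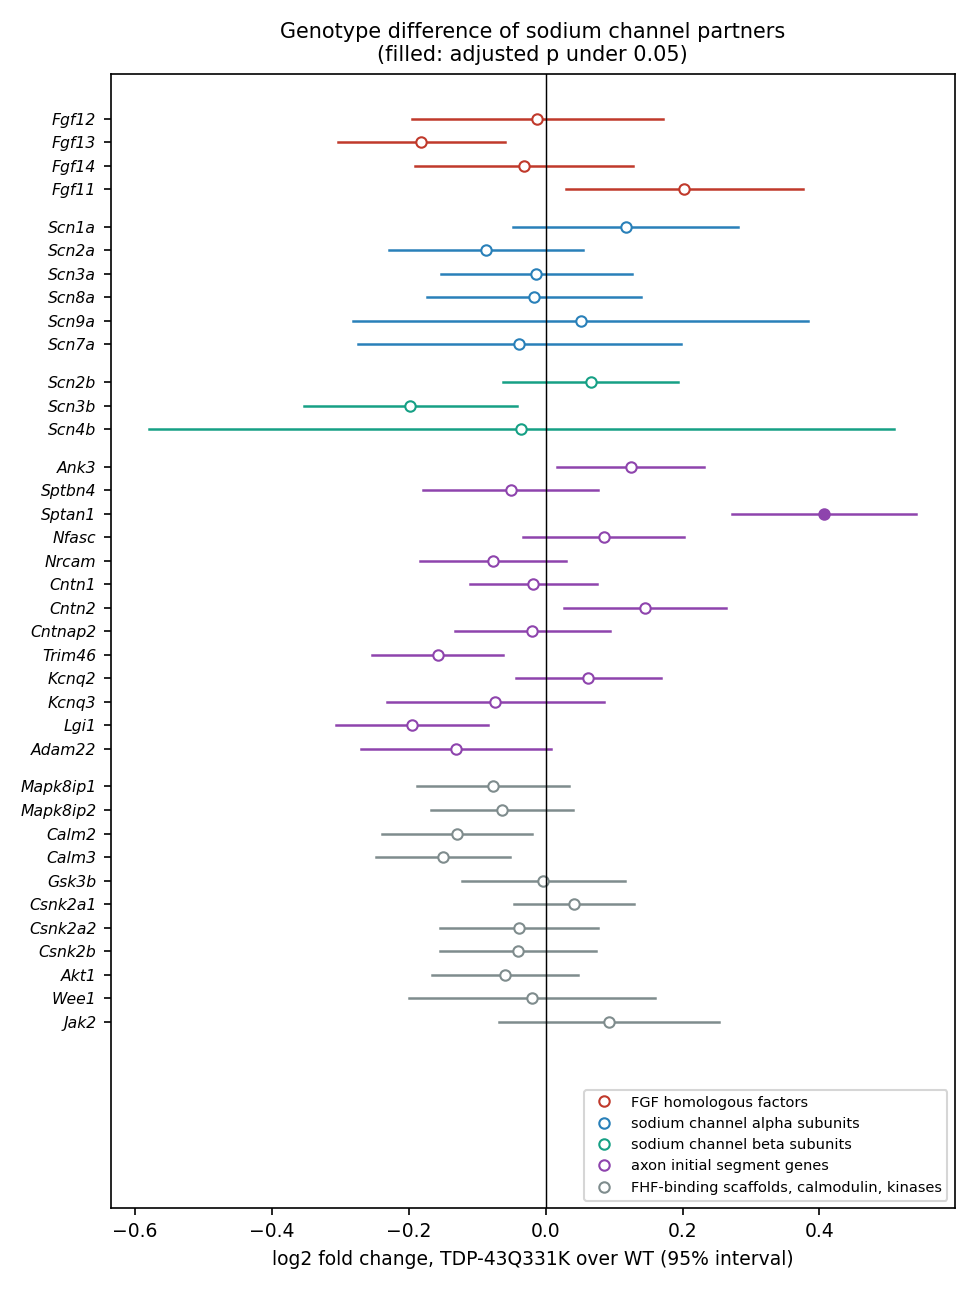
Log2 fold change with its 95% interval, TDP-43Q331K over WT (x axis), for the FHF genes, sodium channel subunits, axon initial segment genes and FHF-binding scaffolds, calmodulin and kinases reported here (rows), fitted by edgeR over 4 against 4 libraries. The 1 filled point, Sptan1 at 0.41, passed the adjusted p of 0.05, and the interval of Fgf13 runs from -0.304 to -0.06.

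The secreted FGFs share the core fold with FHFs but signal from outside the cell. These FGFs and their receptors gave 0 called genes, where edgeR called 0.943% of all genes. Of the 12 genes on the list of Fgf11 and FGF ligands 9 had a row, 6 of them positive, with a median of 0.1. Fgf1 was at 55.7 ± 5.73 CPM in TDP-43Q331K cortex and 52.0 ± 3.65 CPM in WT cortex (log2 fold change 0.10). Fgf2 was at 7.56 ± 0.386 CPM in TDP-43Q331K cortex and 6.6 ± 0.435 CPM in WT cortex (0.20, edgeR adjusted p = 0.276). The log2 fold changes of Fgf9 and Fgf10 were 0.15 and 0.08. The scarcer Fgf5, Fgf16, Fgf18 and Fgf22 were at or below 2.85 CPM on average, with log2 fold changes of -0.21, 0.43, -0.05 and -0.19. Of 6 receptor genes 4 had a row, Fgfr1 (0.16), Fgfr2 (0.20, edgeR adjusted p = 0.25), Fgfr3 (0.08) and the non-kinase receptor Fgfrl1 (-0.03). The main receptor of the list by counts was Fgfr3, at 105 ± 8.03 CPM in TDP-43Q331K cortex and 99.2 ± 6.89 CPM in WT cortex (SD, n = 4 each).

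Long genes and genes with GU repeats are of interest because TDP-43 binds such repeats, often in long introns. Of 211 protein-coding genes that span at least 500 kb, 1 was called higher and 3 lower, and 93 had a positive and 118 a negative log2 fold change (median -0.012), while of all 13832 protein-coding genes 43 were called higher and 77 lower, with a median of 0.006. Fgf13 (-0.18) and Fgf14 (-0.032) lay below the median of this class and Fgf12 (-0.012) at it, with 0 of the 3 called. TGTGTG, searched on the sense strand of 1 transcript per gene and counted without overlaps, was found 2 times in Fgf12-201, 0 times in Fgf13-201 and 1 time in Fgf14-202, and 75.8% of 13826 protein-coding genes hold it in their longest transcript. The longer TGTGTGTGTG was found 1 time, in Fgf14, and 11.5% of the genes hold it. For each gene the longest run is shown with the repeats in capitals, and where runs tie, as the 2 of Fgf12-201 do, the first is shown. The runs shown lie in the coding sequence of Fgf12, in the 5′ UTR of Fgf13 and in the 3′ UTR of Fgf14.
Fgf12: acgggcgctcccTGTGTGagaggcacgtcc
Fgf13: cccggcccggggcTGTGgcgtcggttcgga
Fgf14: agtttctttaTGTGTGTGTGttttatacat
A match is a description of these letters and not a binding site, and introns were not searched.

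The log2 fold change of Fgf13 was negative under each processing choice tried, while the signs of Fgf12 and Fgf14, both near 0, varied. Over 22 other settings and 3 added after seeing the data, that of Fgf13 stayed between -0.27 and -0.12, and DESeq2 alone called it. The range was -0.10 to 0.10 for Fgf12 among fits with all libraries, and the sign of Fgf12 was positive without TDP-43Q331K replicate 4 (0.06), WT replicate 3 (0.02) or WT replicate 4 (0.01). Without WT replicate 4 the log2 fold change of Fgf14 was 0.02. No setting called Fgf12 or Fgf14.

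**Figure D4:**
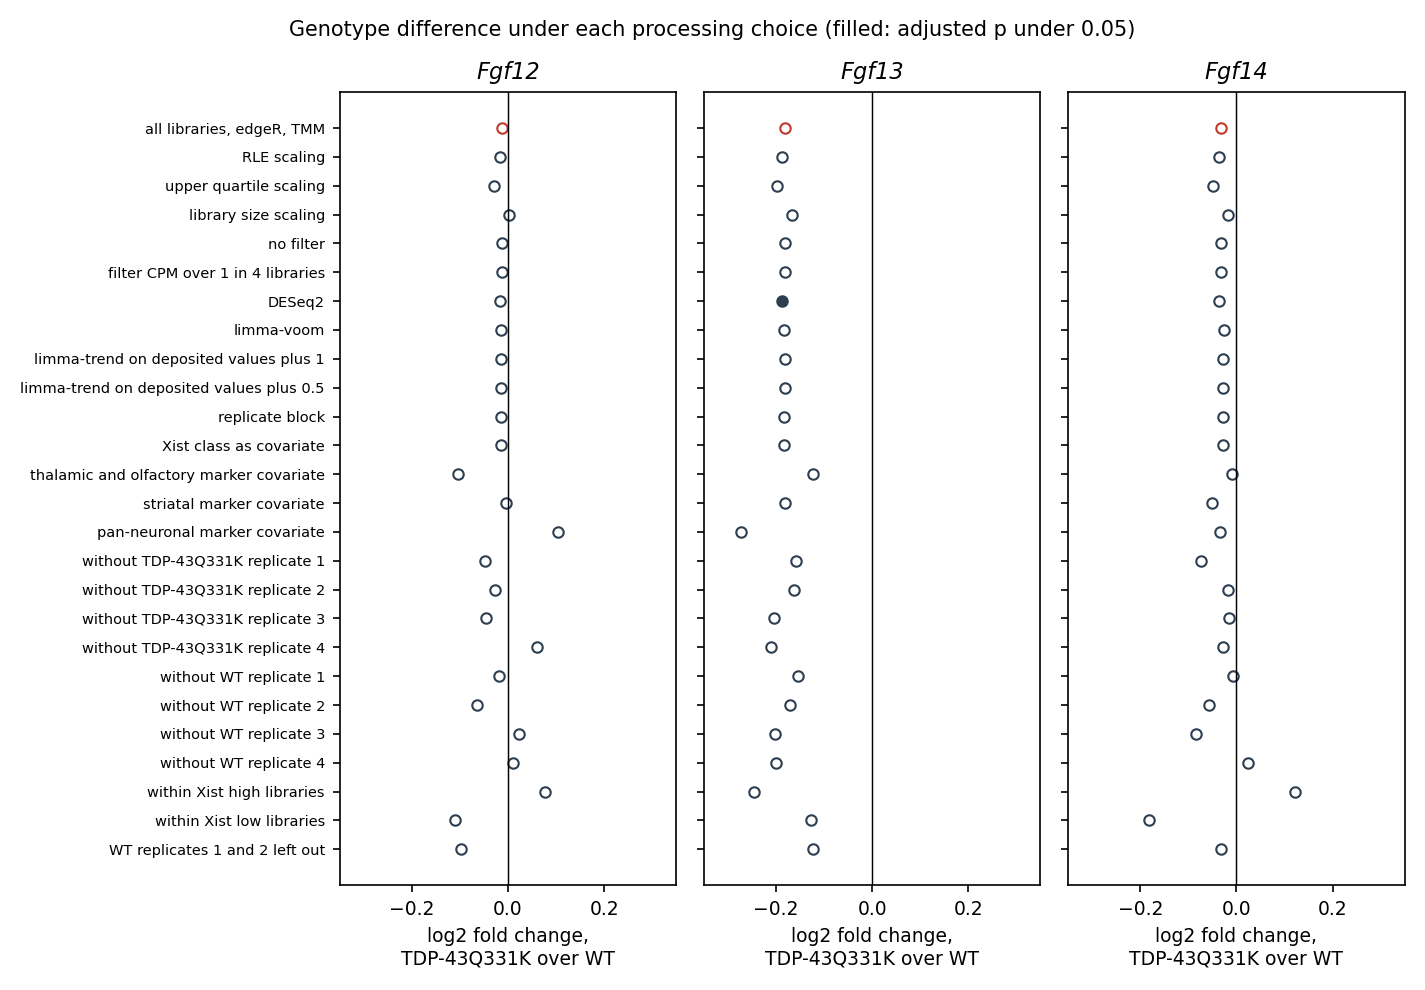
Log2 fold change, TDP-43Q331K over WT (x axis), of Fgf12, Fgf13 and Fgf14 in the fit over all libraries (top row, red) and under each other processing choice or left-out library (rows below). All points of Fgf13 are below 0, between -0.27 and -0.12, and its only filled point, with an adjusted p under 0.05, is that of DESeq2.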

How the data were processed

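The authors deposited unscaled counts of 8 libraries, per the file headers, and a normalised signal table whose values are those counts over library size times a TMM factor (0.987 to 1.02, worked out from the values). Per the labels' protocols, TRIzol RNA was cleaned on silica columns, selected by oligo(dT) and prepared with a stranded Illumina kit for the NovaSeq X. Per the submitters' processing notes, the build was GRCm39 and the tools included R 4.3.1, edgeR 4.4.2 and STAR 2.7.6a. How reads were counted, with which strand setting and annotation, is not stated there. Both tables hold 15693 genes, and 0 columns were left unmatched.

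The counts were fitted in R 4.3.3 with edgeR 4.0.16 (TMM, filterByExpr, which removed 0 genes, intercept and genotype, two-sided quasi-likelihood F-test, 6 residual degrees of freedom, common biological coefficient of variation 11.2%). The fit was also run on simulated counts with known changes, and the outcome is not given here. Chi-square per degree of freedom was 14.6 to 28 between libraries of a group, so no library was a copy. Symbols (15470 of 15693 matched), lengths and transcript sequences came from GENCODE M21, without coordinates. Ratios and correlations used exact permutations in Python 3.11.15 with scipy 1.17.1, coding sequences were aligned with MAFFT 7.526, and transcripts were compared with BLAST 2.17.0. Levels per kb divide CPM by the union of annotated exons or by the longest transcript.

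The members and lists were chosen with earlier results of these data known. The genes named were the 3 FHF genes and Fgf11, Tardbp, the FGFs and receptors measured, in each list the called genes or otherwise the 3 with the smallest p, and the 3 genes most correlated with each member. For inhibitory neuron, glial, vascular and striatal markers, counts and summed levels or medians stand in place of named genes. A few genes of the lists enter the counts but are not reported here. Alternatives were scaling by RLE, by upper quartile or by library size alone, no filter, only genes above 1 CPM in 4 libraries, DESeq2 1.42.0, limma 3.58.1 (voom on counts, and limma-trend on log2 of deposited values with 1 or 0.5 added), replicate number as a block, Xist class or marker means as covariates, and each library left out. The fits within Xist classes (high is over 10 CPM) and without WT replicates 1 and 2 were added after the data were seen.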

Additional observations from a re-analysis of the deposited data

Results flagged for a closer look

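In a check of 46 sets of 4 libraries for a value far from the other 3, Dixon's test at 95% marked 2, where chance marks about 1 in 20 sets. Fgf12 in TDP-43Q331K replicate 4, at 171 CPM, lay far below the other TDP-43Q331K libraries (209.1 to 216.6 CPM). In the same library the thalamic markers Prkcd and Tcf7l2 were at 67.7 and 19.1 CPM, against at most 16.4 and 5.77 CPM elsewhere, and their part in the level of Fgf12 was not tested. Without this library the log2 fold change of Fgf12 was 0.06, with an edgeR adjusted p of 0.699. The log2 ratio of Fgf14 to Fgf12 in WT replicate 3, at -2.44, lay below those of the other WT libraries, of which the highest was -2.09. That library held the highest Fgf12 level (219.3 CPM) and the lowest Fgf14 level (40.31 CPM) of the WT group.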

How the results depend on the processing

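Fgf13 stayed negative in all 22 other settings, with edgeR, limma or DESeq2 adjusted p of 0.0443 to 0.589, and -0.21 to -0.15 with 1 library left out. It passed the threshold with DESeq2 alone (-0.19, adjusted p = 0.0443). Fgf12 turned positive with library size scaling (0.0020), with the pan-neuronal covariate (0.10) and within Xist-high libraries (0.077), and ran from -0.063 to 0.061 with 1 library left out. Fgf14 was 0.12 within Xist-high libraries and ran from -0.084 to 0.023 with 1 library left out. The Fgf14 to Fgf12 ratio difference ran from -0.10 to 0.038 with 1 library left out.

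The 148 called genes became 701 with DESeq2, 14 with the replicate block, 12 with the thalamic and olfactory covariate, 22 with the pan-neuronal covariate, 7 without WT replicates 1 and 2, and 51 to 129 with 1 library left out. With library size scaling 64 were higher and 73 lower, against 54 and 94. The cause of these shifts was not tested. Libraries with the same replicate number did not deviate together (correlations -0.412, 0.031, -0.079 and 0.033), so this check gave no sign of pairing. It cannot exclude a pairing by litter or handling, which the labels do not give. With the replicate block Fgf13 was -0.18 (adjusted p = 0.357), Fgf12 -0.02 and Fgf14 -0.03.

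With the thalamic and olfactory covariate Fgf1 was -0.015, Fgf10 -0.022, Fgf16 -0.30 and Fgf18 0.016, and with the pan-neuronal covariate Fgf18 was 0.26, Fgfr1 -0.0026, Tbr1 0.039 and Tcf7l2 -0.0021, all against the sign of the fit without it. With 1 library left out, Fgf18 ran from -0.14 to 0.054 and Fgfrl1 from -0.10 to 0.033. With 4 libraries a group, the interval of Fgf12 runs from -12.7% to 12.6%.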
